A study of Homo sapiens with 7 samples.

Results

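The 9 CHD (chromodomain helicase DNA-binding) genes, CHD1 to CHD9, were taken from the m6A map by their gene symbols, 9 of 24721 symbols in the table, with 1 listed transcript each. All 7 libraries came from cultures labelled HepG2, an established human liver cancer line, with no genetic change or treatment recorded. They comprised 4 libraries precipitated with an antibody against N6-methyladenosine (m6A-IP) and 3 inputs, made from poly(A)-selected RNA broken into fragments of about 100 nt. The deposited table gives 1 value for all libraries together: an expression quantile per transcript (a rank from 0 to 1) and, for each peak, its position, exon, segment and score. No value belongs to a single library, so depth is unknown, replicate error could not be had, and the values are descriptions without a test. Hepatocyte markers went against the label. ALB, AFP, TTR, SERPINA1 and APOB were at the lowest quantile of the table (0.314), APOA1 was at 0.403 and HNF4A at 0.509, and none of the 7 had a peak.

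CHD proteins remodel chromatin. A SNF2-type motor burns ATP to slide, space or evict nucleosomes, and a pair of chromodomains at the N-terminal side binds histone tails or DNA. The family has 3 branches by domain make-up: CHD1 with CHD2, CHD3 with CHD4 and CHD5, which carry PHD fingers, and CHD6 to CHD9, most of which carry BRK domains near the C terminus. m6A is written on messenger RNA by the METTL3-METTL14 complex within the consensus RRACH (R for a purine, H for any base but G) and is read by YTH-domain proteins that act on decay, translation and export.

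Peaks were found in 8 of the 9 CHD genes, 27 in all, and CHD5 had none. For comparison, 27.9% of all 25918 transcripts had a peak, 45.8% of coding transcripts above the lowest quantile, 57.0% of those whose gene has a GENCODE transcript of at least 6000 nt, and 64.3% of coding transcripts at or above the quantile of CHD9, the lowest-ranked member with a peak. The 27 peaks were shared unevenly between the branches. CHD6 to CHD9 held 21 of them, with 3 to 7 each, while CHD1 and CHD2 held 3 and CHD3 to CHD5 also 3. Per 1000 nt of transcript this was 0.528 peaks in CHD6 to CHD9, against 0.190 in CHD1 and CHD2 and 0.128 in CHD3 to CHD5. Without CHD5, CHD3 and CHD4 had 0.217, above CHD1 and CHD2, and matched transcripts of at least 6000 nt with a peak had 0.301. All 17 peaks that the authors placed in the coding sequence belonged to CHD6 to CHD9.

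**Figure D1:**
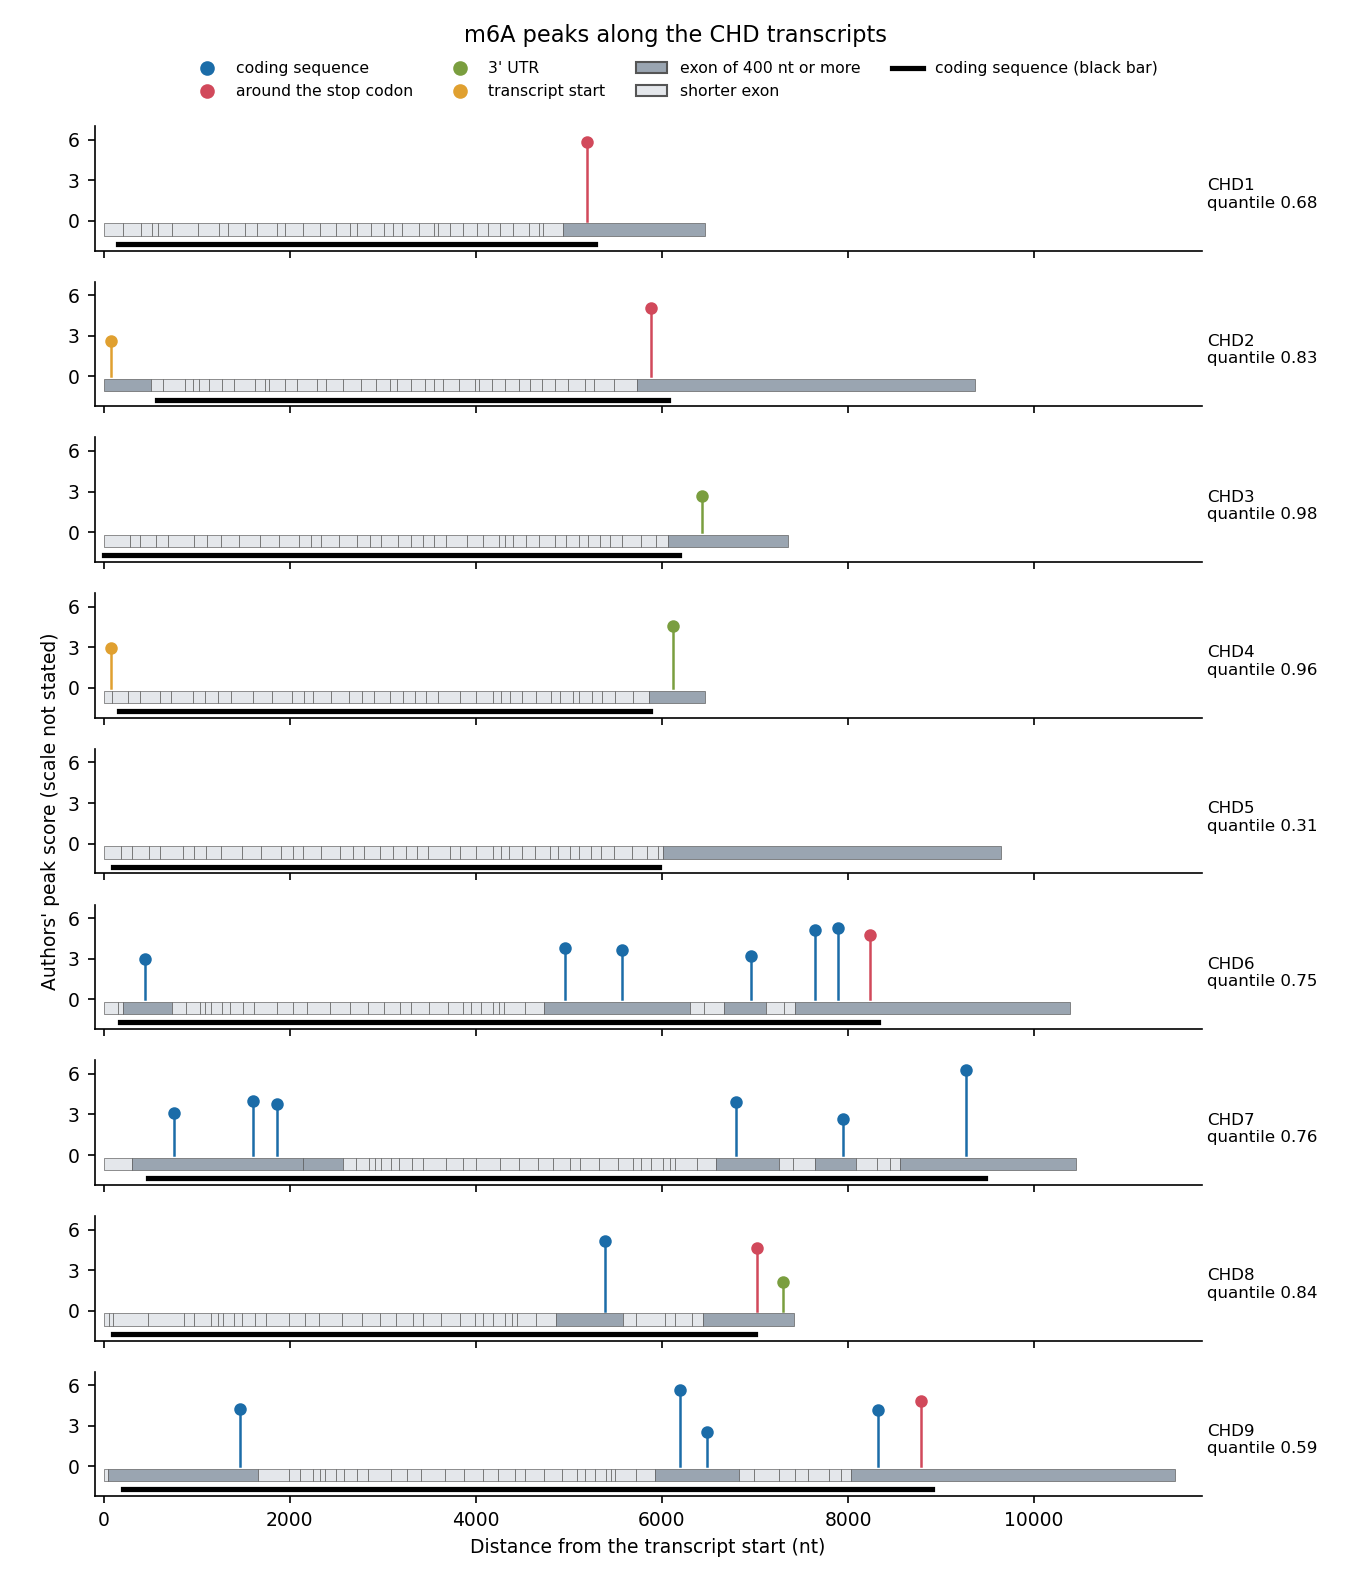
Peaks along the 9 CHD transcripts: the x axis is the distance from the transcript start in nt, the height of each pin the authors' score, its colour the authors' segment, and the boxes the exons (dark from 400 nt). CHD6 to CHD9 have pins over dark internal exons, the other members only at the last exon or the transcript start, and CHD5 has none.

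Sequences near the peaks are shown for 7 members, as the 29 nt around one RRACH site, to let the motif be seen in place. For each peak GGACT was taken where it lay within 50 nt of the listed position, and otherwise the nearest RRACH site. The site lay 35 nt from that position in CHD1, 32 in CHD3, 15 in CHD8, 50 in CHD9 (6190) and 16 in CHD6 (6957). These stretches do not reach the listed position. At 6190 of CHD9 the nearest RRACH site was 8 nt away. The motif is in capitals and T stands for U. They were read from GENCODE release 29 transcripts matched to the table's exons, and the coordinates are GRCh38, which is not the build of the table. The first 7 belong to the highest-scoring peak of each of these genes. Sequence of CHD7 is not printed here, although that gene held the highest score of the family and is compared with its paralogs in the same exons.
CHD1, around the stop codon (chr5:98856423-98856451, minus strand): agatctccatttGAACAttcagttgaaca
CHD2, around the stop codon (chr15:93024511-93024539, plus strand): ttccacacagatAAACTgggggaatataa
CHD3, 3' UTR (chr17:7911783-7911811, plus strand): accaagccttgaAGACTgtgctggtgaga
CHD4, 3' UTR (chr12:6570415-6570443, minus strand): ggctggccttctGGACCctggcttctccc
CHD6, coding part of exon 37 (chr20:41405015-41405043, minus strand): aaagactgcggaAGACAagccgagtagcc
CHD8, exon 32 (chr14:21393662-21393690, minus strand): accaaccccacaAGACTatgagatgcgag
CHD9, exon 31 (chr16:53304023-53304051, plus strand): tggctcattcaaGGACTtctaccccactt
The next 4 are further coding peaks, 2 of exon 31 and 1 of exon 34 of CHD6, and the other of exon 31 of CHD9, shown because the paralogs are compared at these exons.
CHD6, exon 31, position 4953 (chr20:41421840-41421868, minus strand): caaacatgggctGAACCgcactgactgtt
CHD6, exon 31, position 5571 (chr20:41421227-41421255, minus strand): gaggcaggacagAGACCtgaaaacattgg
CHD6, exon 34, position 6957 (chr20:41415347-41415375, minus strand): agcccttggcatGGACTtgtctgggattc
CHD9, exon 31, position 6488 (chr16:53304264-53304292, plus strand): acaggctactggAGACCagaaatctggtg

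Expression ranks spread widely over the family. CHD3 and CHD4, the motor subunits of the NuRD deacetylase complex, ranked highest, at quantiles of 0.982 and 0.957, above 97.8% and 94.6% of coding transcripts. CHD8, a remodeller known to bind beta-catenin, was at 0.837 and CHD2 at 0.830. CHD7, a developmental regulator mutated in CHARGE syndrome, was at 0.762 and CHD6, linked to the oxidative stress response, at 0.747. CHD1, which binds trimethylated lysine 4 of histone H3, was at 0.679 and CHD9 at 0.592. CHD5, a mainly neural tumour suppressor, was at 0.315, and only 20 transcripts, itself included, lay above the lowest quantile and no higher than it. With 1 value per gene, whether neighbours in this order (CHD8 and CHD2, or CHD7 and CHD6) differ could not be tested, and fewer expressing cells cannot be told apart from less RNA per cell.

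The order of peak numbers differed from the order of these ranks. CHD3, the highest-ranked, had 1 peak and CHD4 had 2, while CHD9, the lowest-ranked member with a peak, had 5. In the expression bin of CHD9 (quantiles 0.5 to 0.6) 28.4% of coding transcripts had a peak, and those with a peak had 1.46 on average. In the bin of CHD6 and CHD7 (0.7 to 0.8) the share was 65.1% and the average 1.86. In the bin of CHD3 and CHD4 (0.9 to 1) it was 69.3% and 1.72. Among genes with a GENCODE transcript of at least 6000 nt, the shares in these bins, in the same order, were 43.1%, 81.5% and 87.9%. The averages of those with a peak were 1.78, 2.48 and 2.74, the last above the 2 peaks of CHD4. CHD6 (7 peaks), CHD7 (6) and CHD9 (5) were the members with 5 or more peaks, as were 3.38% of all transcripts with a peak and 11.6% of those with a GENCODE transcript of at least 6000 nt. Only 50 transcripts of the table had 7 or more. CHD5 lay in a bin (0.3 to 0.4) where 1 of 6337 coding transcripts had a peak.

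**Figure D2:**
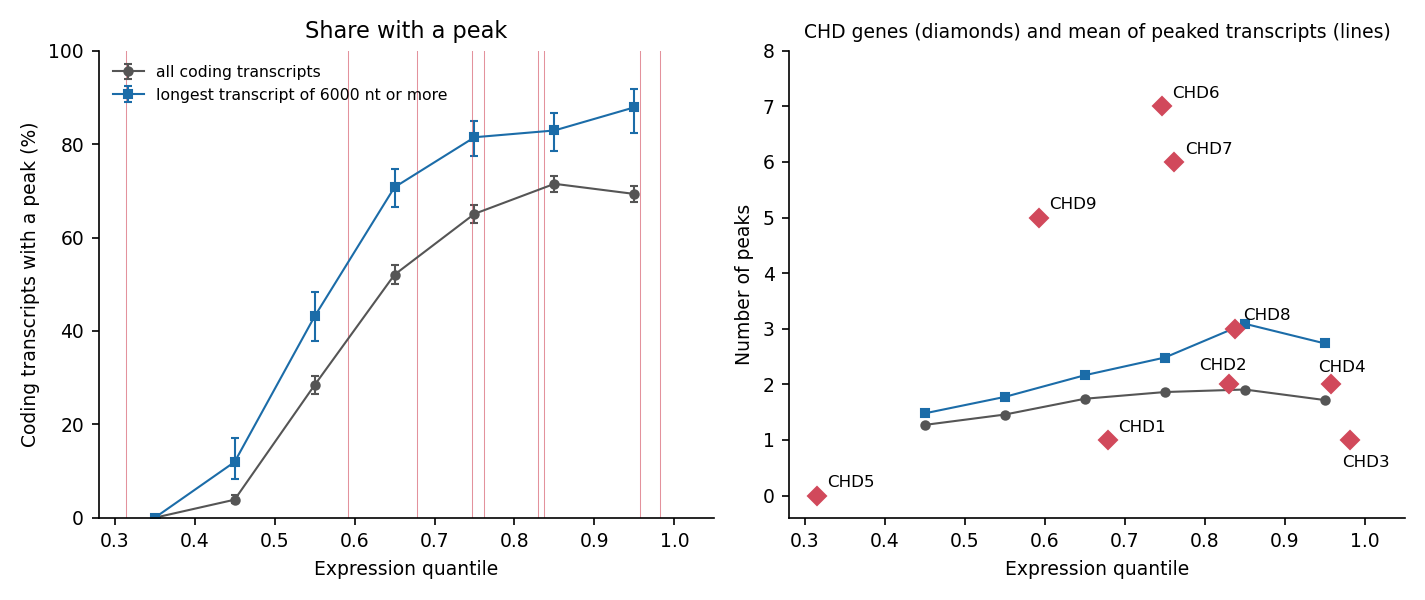
Left, the share of coding transcripts with a peak by expression quantile (bins of 0.1, 95% Wilson intervals), for all coding transcripts and for genes with a GENCODE transcript of 6000 nt or more; red lines mark the 9 CHD genes. Right, the number of peaks of each CHD gene (diamonds) and the mean of transcripts with a peak in each bin (lines, bins with over 20 such transcripts): CHD6, CHD7 and CHD9 lie far above the lines, and CHD1 and CHD3 below them.

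CHD1 and CHD2, known for spacing nucleosomes along transcribed genes, each carried 1 peak near the stop codon with a score well above the median of all peaks (3.15). CHD1 (table entry uc003knf.1, chromosome 5, 98218808 to 98290138, minus strand, in the build of the table, which is not given in the sources used here) had its only peak at position 5189 of the transcript. It lay in exon 35, the last (1522 nt), 92 nt before the end of the stop codon, and scored 5.84, above 98.4% of all peaks. CHD2 (uc002bsp.1, chromosome 15, 91244555 to 91372241, plus strand) had a peak at position 5880 in exon 39, the last (3636 nt), 182 nt before the end of the stop codon, with a score of 5.09. Its other peak, at position 72 in exon 1 (504 nt), scored 2.65, below that median. That one was the only peak of the 27 with no RRACH within 50 nt, and the nearest site lay 74 nt away. Neither gene had a peak in the 33 and 37 internal exons, the longest of which were 272 and 247 nt.

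CHD3 and CHD4 each had a peak past the stop codon. CHD3 (uc002gjd.2, chromosome 17, 7728848 to 7756800, plus strand) had 1 peak, at position 6426 in the 3' UTR part of exon 40 (1294 nt), with a score of 2.67. CHD4 (uc001qpo.1, chromosome 12, 6549509 to 6586812, minus strand) had a 3' UTR peak at position 6117 in exon 40 (612 nt), which scored 4.55, above 86.8% of all peaks. Each lay 244 nt after the end of the stop codon. The proteins were 73.0% identical over aligned residues. Of the 101 nt around the peaks, 24 were identical when laid side by side without gaps and 59 when gaps were allowed. No such count was made for unrelated sequences, so whether the 2 peaks mark a corresponding site was not tested. Fragments of about 100 nt also limit how exactly the equal distance can be read. CHD4 also had a peak at the transcript start, at position 76 of exon 1 (86 nt), with a score of 2.94. CHD5 (uc001amb.1, chromosome 1, 6084440 to 6162770, minus strand), 74.3% identical to CHD3 and 74.2% to CHD4, had 13 GGACU sites in its 9646 nt and no peak.

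CHD6 to CHD9 each had coding peaks in internal exons as well as peaks in the last exon. CHD6 (uc002xka.1, chromosome 20, 39464584 to 39680547, minus strand) had 7 peaks, the most of the family. A peak at position 447 in exon 3 (521 nt) scored 2.97, those at 4953 and 5571 in exon 31 (1572 nt) scored 3.78 and 3.64, and that at 6957 in exon 34 (453 nt) scored 3.21. The last exon, exon 37 (2960 nt), held the 3 strongest, at 7644, 7889 and 8233, with scores of 5.13, 5.30 and 4.73. The first 2 of these lay in the coding sequence and the last around the stop codon, 92 nt before its end.

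CHD7 (uc003xue.1, chromosome 8, 61753893 to 61942021, plus strand) had 6 peaks, all in the coding sequence. Exon 2 (1839 nt), which holds the start codon, carried 3, at positions 758, 1600 and 1857, with scores of 3.14, 3.98 and 3.79. Peaks at 6792 in exon 31 (672 nt) and 7950 in exon 34 (444 nt) scored 3.94 and 2.68. The highest score of the family, 6.26, belonged to position 9268 in exon 38, the last (1893 nt), and was above 99.3% of all peaks. At 203 nt before the end of the stop codon it lay just outside the stop codon segment, taken here to reach 200 nt on either side since this gave back the authors' segments.

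CHD8 (uc001was.1, chromosome 14, 20923198 to 20975244, minus strand) had 3 peaks. That at position 5391 in exon 32 (720 nt) scored 5.14, that at 7024 in exon 38 (978 nt), 21 nt past the stop codon, 4.62, and that at 7304 in the 3' UTR part of the same exon 2.09, the lowest score of the family. CHD9 (uc002egy.1, chromosome 16, 51646446 to 51918915, plus strand), a coactivator of nuclear receptors, had 5. A peak at position 1461 in exon 2 (1616 nt) scored 4.25, those at 6190 and 6488 in exon 31 (906 nt) scored 5.64 and 2.51, and those at 8326 and 8786 in exon 39 (3483 nt) scored 4.15 and 4.87. The highest scores of CHD8 and CHD9 stood in an internal exon, and those of CHD6 and CHD7 in the last.

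**Figure D3:**
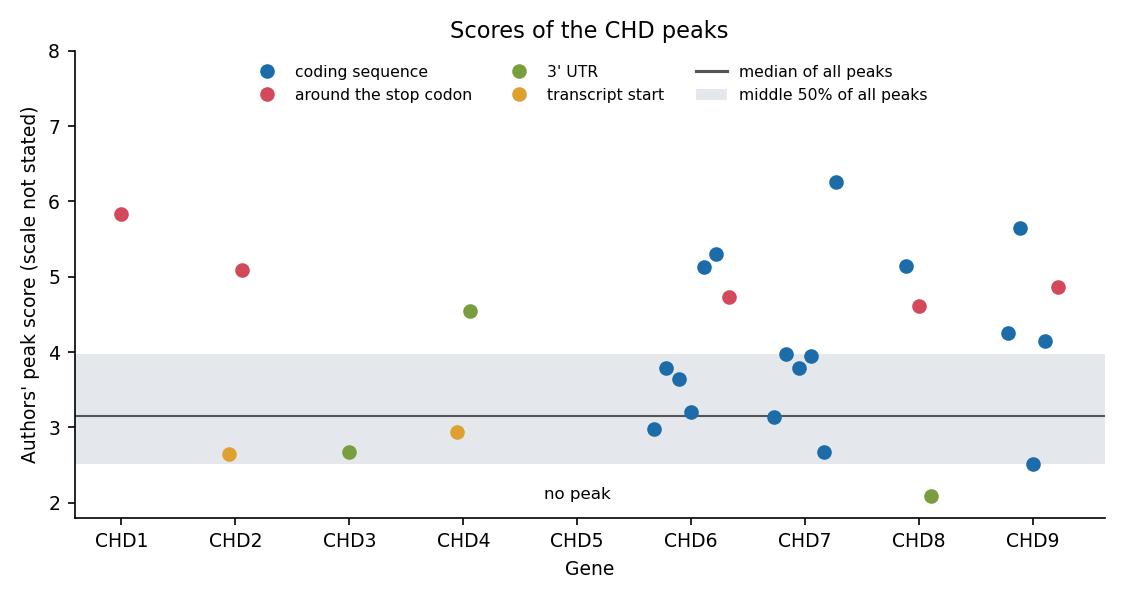
The authors' score of each of the 27 CHD peaks by gene, in order of position from left to right, coloured by segment, with the median (line) and the middle 50% (band, 2.52 to 3.96) of all peaks of the table. The peaks around the stop codon lie between 4.62 and 5.84, and both transcript start peaks are below the median of all peaks.

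Scores of CHD peaks ran from 2.09 to 6.26 with a median of 3.98, against 3.15 for all 12769 peaks, and 19 of 27 (70.4%) were at or above that median. The 95% binomial interval of the CHD median, 3.14 to 4.87, takes the peaks as independent, which peaks on 1 transcript are not. The score is the authors' and its scale is not stated. By segment, the 5 peaks around the stop codon had a median of 4.87 (3.45 for all such peaks), the 17 coding peaks 3.94 (3.14) and the 3 of the 3' UTR 2.67 (3.22). Both start peaks, at 2.65 and 2.94, were close to the median of all start peaks, 2.73.

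The coding sequence held 63.0% of the CHD peaks (17 of 27, 95% Wilson interval 44.2 to 78.5%) against 36.6% of all peaks with a segment. Long transcripts in general had more of their peaks there: among 467 matched transcripts of at least 6000 nt with a peak, 49.8% of 1342 peaks were coding. The CHD interval includes this share, but it takes the peaks as independent, which peaks on 1 transcript are not. The stop codon segment held 18.5% of CHD peaks and 20.7% of those of long transcripts, and the 3' UTR 11.1% and 22.4%. Every CHD transcript with a peak had one in its last exon (8 of 8), as did 83.5% of the long transcripts. In CHD1, CHD2, CHD3 and CHD4 that was 1 peak each, and in CHD6, CHD7, CHD8 and CHD9 it was 3, 1, 2 and 2. Of these 12 peaks, 8 lay before the end of the coding sequence.

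Internal peaks of the family lay in long exons only. Of the 290 internal exons of the 8 transcripts with a peak, 10 were at least 400 nt long, and 9 of these held all 13 internal peaks. The 10 belonged to CHD6 (3), CHD7 (4), CHD8 (1) and CHD9 (2). The other one, exon 3 of CHD7 (431 nt), was the shortest and had no peak. None of the 222 internal exons under 200 nt and none of the 58 from 200 to under 400 nt had a peak, which allows shares of up to 1.70% and 6.21% (upper 95% Wilson limits, for counting error only). Over all 3591 matched transcripts with a peak the shares were 0.259% and 2.68%, and 61.6% for exons of at least 400 nt (551 of 894), inside the interval of the CHD share (90.0%, 59.6 to 98.2%). CHD1 to CHD5 had no internal exon of 400 nt or more, so exon structure and branch cannot be told apart as the feature that goes with internal peaks. Internal peaks lay at least 135 nt from the nearest exon end, with a median of 237 nt. Their exons were 444 to 1839 nt long, and no distance for other positions in such exons was taken for comparison.

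**Figure D4:**
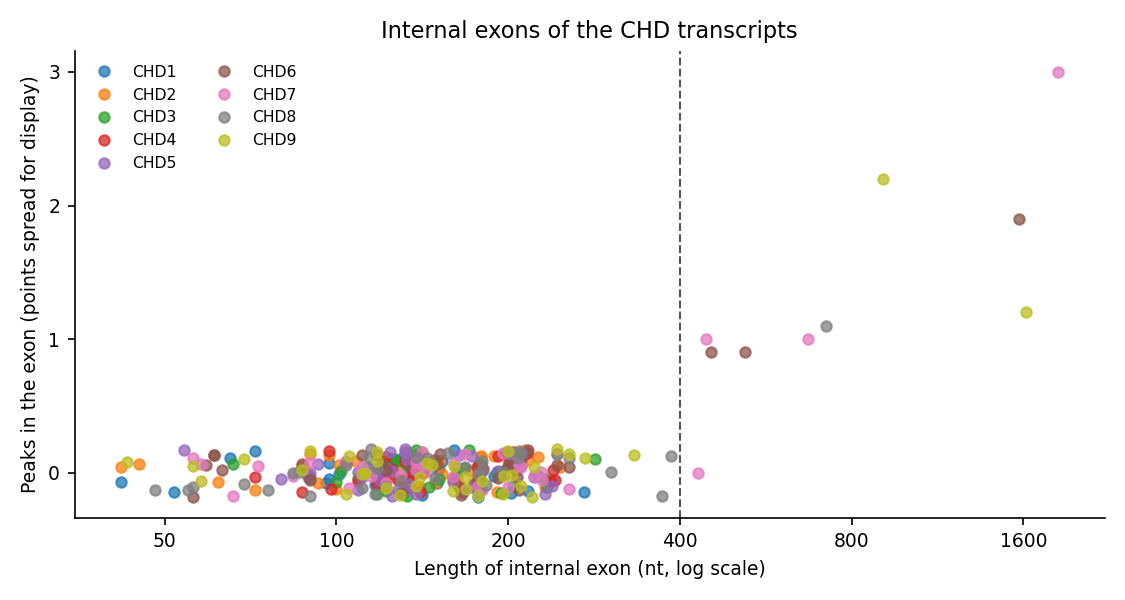
Every internal exon of the 9 CHD transcripts by its length (x axis, log scale) and its number of peaks (y axis, points spread for display); the dashed line is at 400 nt. All exons with a peak lie to the right of the line, where the only exon without one is exon 3 of CHD7 (431 nt).

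One long exon with peaks corresponded between CHD6, CHD7, CHD8 and CHD9. When the translated coding sequences were aligned, exon 31 of CHD7 fell within exon 31 of CHD9 and exon 32 of CHD8 with all 224 of its codons, and within exon 31 of CHD6 with 221. This exon had a peak in all 4 genes, with a length from 672 nt in CHD7 to 1572 nt in CHD6. It was thus at least 400 nt long in each gene. Over all matched transcripts with a peak, 61.6% of internal exons of that length had one. The peaks of CHD6 (position 4953) and CHD7 (6792) in it lay 3 aligned codons apart, that of CHD9 (6190) lay 19 codons from the peak of CHD7, and that of CHD8 (5391) lay 11 codons from the second peak of CHD9 (6488) when counted on CHD9. On the codons of CHD7, where that CHD9 peak falls next to a gap, the last distance was 38. The CHD8 peak was 106 codons from that of CHD7. The other CHD6 peak of this exon (5571) had no aligned codon in CHD7. It lay 27 codons from the second CHD9 peak on CHD9 and 33 on CHD6. From the CHD8 peak it lay 139 codons on CHD8, where its aligned codon fell in exon 34, outside the corresponding exon. On the codons of CHD7, counted from the nearest aligned codon, these distances were 63 and 25. Identity within the exon was moderate, 50.2% between CHD7 and CHD6, 39.3% between CHD7 and CHD8 and 50.4% between CHD7 and CHD9. No distance was taken for other positions in these exons, so whether the peaks mark corresponding sites was not tested. Fragments of about 100 nt also limit how exactly distances of a few codons can be read.

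The distances of further pairs depended in part on the gene they were counted on, and the same limits hold for them. Exon 34 of CHD6 and exon 34 of CHD7 corresponded over 145 codons, and their peaks (6957 and 7950) were 6 codons apart on either gene. The segment is split into shorter exons in CHD9, where exon 34 has 169 nt, and neither CHD8 nor CHD9 had a peak there. Exon 2 of CHD7 and exon 2 of CHD9 aligned over 454 codons, with the nearest peaks (1857 and 1461) 18 codons apart on CHD9 and 38 on CHD7, where the CHD9 peak falls next to a gap. The other CHD7 peaks of that exon, at 758 and 1600, were 329 and 84 codons from the CHD9 peak on CHD9, and 404 and 123 on CHD7. Correspondence did not always go with a shared peak. Exon 3 of CHD6, with a peak at 447, aligned to exon 3 of CHD7 with 128 of its 174 codons, and the CHD7 exon had no peak. Identity over the 149 aligned codons of this CHD6 exon was 34.9%. In the last exon, the stop codon peak of CHD6 (8233) was 14 codons from that of CHD9 (8786) on CHD9 and 16 on CHD6. The peak of CHD7 (9268) was 25 codons from that of CHD9 on CHD9 and 26 on CHD7, and 38 codons from that of CHD6 on CHD6.

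**Figure D5:**
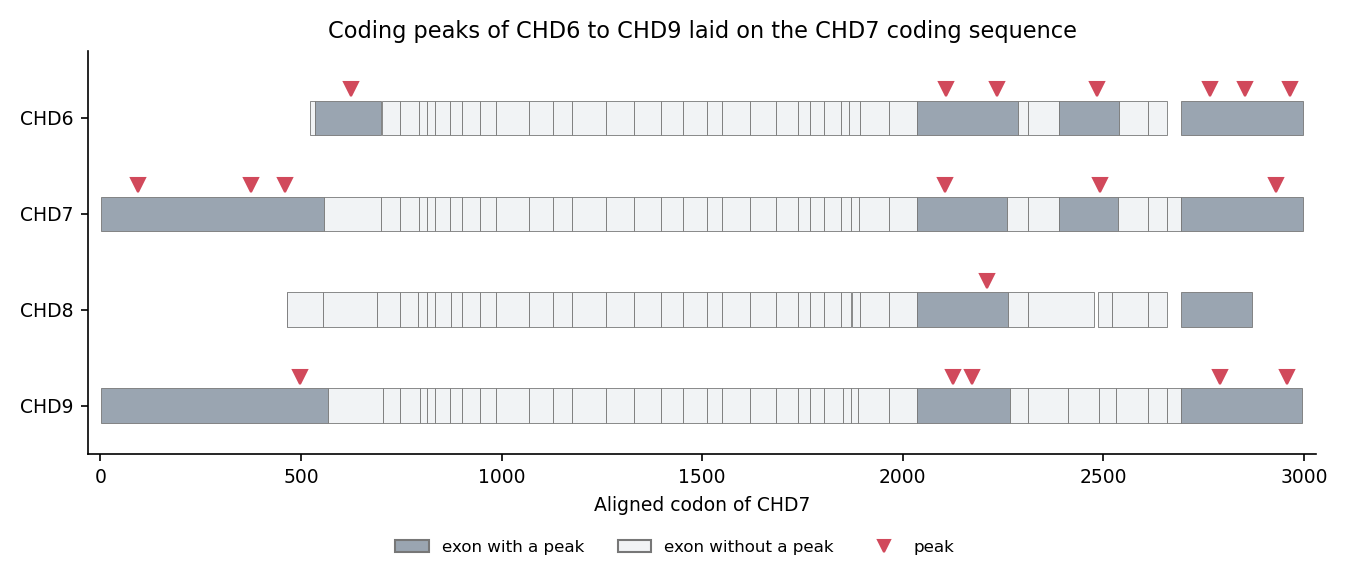
Exons (boxes) and peaks (triangles) within the coding sequences of CHD6 to CHD9, laid on the aligned codons of CHD7 (x axis); a peak in an unaligned stretch is set at the nearest aligned codon. Exon 31 of CHD7 and its counterparts hold at least 1 peak in all 4 genes, and the last exon carries coding peaks in CHD6, CHD7 and CHD9.

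The m6A consensus lay close to nearly all CHD peaks. RRACH was within 50 nt of 26 of 27 (96.3%, 95% Wilson interval 81.7 to 99.3%), at a median distance of 10 nt, while 39 of 51 control windows, 300 nt up- or downstream, held it (76.5%). The interval again takes the peaks as independent. Over all 6328 matched peaks, RRACH was near 89.5%, and 75.6% of their control windows held it. Peaks at the transcript start, where RRACH was near 63.7%, made up 15.1% of matched peaks and 7.41% of CHD peaks. Without start peaks, RRACH was near 25 of 25 CHD peaks (100%) and 94.1% of matched peaks. Some CHD control windows took in a neighbouring peak, since peaks of CHD6, CHD7, CHD8 and CHD9 lay 344, 257, 280 and 298 nt apart. The control shares are therefore not free of peaks. GGACU was within 50 nt of 8 CHD peaks (29.6%) and in 3 of the 51 control windows (5.88%), against 28.3% and 10.1% over all matched peaks. These 8 were peaks of CHD6 (2), CHD7 (3), CHD8 (1) and CHD9 (2), and none of the 6 peaks of CHD1 to CHD4 had GGACU within 50 nt. The core GGAC lay within 50 nt of 17 of 27 peaks (63.0%, 64.8% over all matched peaks).

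Most consensus sites in the family had no peak. The 8 transcripts with a peak held 1140 RRACH sites, 16.4 per 1000 nt, of which 68 (5.96%) were within 50 nt of a peak. Matched transcripts of at least 6000 nt held 12.1 per 1000 nt and had 5.74% near a peak. Of 67 GGACU sites, 8 (11.9%) were near a peak, against 11.5% in those long transcripts. CHD2 had 13 GGACU sites and CHD7 had 12, of which 0 and 3 lay near a peak.

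Partners and relatives of the CHD proteins were counted as lists. Of 11 NuRD subunits, at a median quantile of 0.929 (0.765 to 0.990), 6 had a peak, while 69.3% of coding transcripts from 0.9 to 1 did. Of their 10 peaks, 6 were in the 3' UTR and 1 in the coding sequence. The zinc finger subunit GATAD2A, named after its values were seen, held 4 of these 3' UTR peaks. MBD3, a methyl-CpG-binding domain protein, had the highest score (4.81), followed by GATAD2B (3.65), a paralog of GATAD2A. The scaffold MTA3, the deacetylases HDAC1 and HDAC2, the histone chaperone RBBP7 and MBD2 had none, at quantiles of 0.768, 0.916, 0.765, 0.976 and 0.929. Of 12 other SNF2-type motors, at a median quantile of 0.832, 8 had a peak, while 71.5% of coding transcripts from 0.8 to 0.9 did. Among genes with a GENCODE transcript of at least 6000 nt that share was 82.9%. The motors ran from 0.582 to 0.984, and from 0.5 to 0.6 the share of all coding transcripts was 28.4%. A single bin is thus a rough comparison for either list. The motors held 24 peaks, 13 of them coding. ERCC6, a transcription-coupled repair factor, scored 5.72, and SRCAP, which deposits the histone variant H2A.Z, scored 5.19 and had 8 peaks. SMARCA1, HELLS, SMARCAD1 and CHD1L had none, at 0.666, 0.804, 0.582 and 0.857. The median length of the longest GENCODE transcript was 5518 nt for the NuRD list and 6750 nt for the other motors, against 9363 nt for the CHD genes. The genes of these lists nearest to CHD6 in expression quantile were ERCC6 (0.752, 3 peaks), HDAC2 (0.765, none) and MTA3 (0.768, none). Similar ranks thus went with 7, 3 and no peaks, but these genes were not matched by length or exon structure.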

How the data were processed

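The m6A-IP and input libraries were grouped by title. Per the file headers, the deposited table gives an expression quantile (a fraction), and for each peak its position, exon, segment and the authors' score, whose scale is not stated. The aligner and peak caller, like the genome build, were not given in the sources used here. No column belongs to a single library. Members were the rows with symbols CHD1 to CHD9, each with 1 transcript. They and the lists were chosen with earlier results of these data known.

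Sequence and exon structure came from GENCODE release 29. A match with every listed exon length was had for CHD1 alone among members with a peak. CHD5, without peaks, was matched by its span. For the others, a rule added after the data were seen let the first and last exon end elsewhere where this accounted for the whole difference in span and 5' ends differed by at most 50 nt. It matched 3591 transcripts (6328 peaks). The segments so derived equalled the authors' for 99.0% of peaks and for 27 of 27 CHD peaks. Coding sequences were translated and aligned globally with Biopython 1.88 (BLOSUM62). Motifs were searched on the transcript strand. GGACU is one of the RRACH words. Matching and motif search were tested on simulated data. All members are named, and of each related list the 2 with the highest score and those without a peak. Alternatives are in the closing section.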

Additional observations from a re-analysis of the deposited data

How the results depend on the processing

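No paired analysis was possible because no column of the table belongs to a single library, and for the same reason no library could be left out. Counting transcripts or merging peaks under 200 nt apart could not alter a count, since each member has 1 transcript and its peaks lie at least 245 nt apart. Without CHD5, an alternative chosen after the data were seen, CHD3 to CHD5 had 0.217 peaks per 1000 nt in place of 0.128. With peaks at or above the median score alone, 7 genes and 19 peaks remained, and 100% of these peaks were in exons of at least 400 nt (96.3% of all CHD peaks). The coding share among them was 68.4%, against 63.0% of all CHD peaks. Without CHD6, the member with most peaks, 20 peaks remained, of which 55.0% were coding. The median score was 5.22 when only the highest score of each gene was taken. With every listed exon length required, RRACH rested on the 1 peak of CHD1 (100%), too few to show any dependence. With ends free to differ, a rule chosen after the data were seen, RRACH was near 96.3% of peaks within 50 nt and 100% within 100 nt, DRACH (U also allowed as first base) near 100%, and GGAC near 63.0%. Depth is unknown, so the limit it sets on calling peaks, above all at CHD5, could not be measured.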
